A study of Homo sapiens with 16 samples.

Results

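MHC class I molecules present peptides from inside the cell to CD8 T cells, and they also hold back natural killer (NK) cells. Each molecule is a heavy chain, encoded among others by the classical genes HLA-B and HLA-C and the nonclassical genes HLA-E and HLA-F, bound to the light chain β2-microglobulin, encoded by B2M. NLRC5 is the transactivator of these genes. MICA, MICB and ULBP2 have the opposite role, since they are stress-induced ligands of NKG2D, an activating receptor on NK cells and CD8 T cells. Peptides for class I molecules come largely from the proteasome, which is the target of bortezomib.

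These 9 genes were followed in LP-1, a human multiple myeloma cell line, on 16 single-colour Agilent arrays. LP-1-cIAP2-eGFP cells had been transduced with a lentiviral vector for cIAP2, an inhibitor of apoptosis protein encoded by BIRC3, together with eGFP, and LP-1-eGFP cells (control) carried eGFP alone. Both lines had been sorted for eGFP. Bortezomib was given at 10 nM or not at all, and cells of both lines were collected after 6 h and after 24 h, which made 8 conditions with 2 biological replicates each. The members were chosen by name and were found through the RefSeq accession of each probe, which gave 14 of the 50599 gene probes on the array. Of 20503 gene symbols so named, 9 are members, and 8 of them were tested.

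Where a gene had several probes, the one brightest over the 16 arrays is reported first, and levels of different probes were not compared with each other. Signals are on the log2 scale after quantile normalization. A probe was tested when both arrays of at least 1 condition lay well above background by the scanner software, which held for 33731 probes and for 13 of the 14 probes of the members. The probe of ULBP2 was not tested. Differences are log2 differences with their standard error (SE) from limma, and called differences have a Benjamini-Hochberg adjusted p under 0.05 over all tested probes.

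One array stood apart. The first replicate of LP-1-cIAP2-eGFP cells with bortezomib at 24 h had a median log2 signal of 3.18 before normalization, with 35.5% of its spots well above background. The other 15 arrays had medians from 5.73 to 6.64 and 49.0% to 71.1% of their spots well above background. The leading counts are therefore also given without this array. The arrays lay on 2 slides, and 6 of the 8 LP-1-cIAP2-eGFP arrays were on slide 1 and 6 of the 8 control arrays on slide 2.

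By the description in the methods, the BIRC3 probe lies outside the part of the transcript carried by the vector, so it does not measure the transgene and does not check the labels of the lines. Its log2 signal in untreated cells at 6 h was 11.92 and 12.13 in the LP-1-cIAP2-eGFP line and 13.57 and 13.67 in the control line. All 8 plasma cell markers were well above background on at least 15 of 16 arrays, whereas the B cell genes MS4A1 and PAX5 were well above background on 0 arrays. CD14, a monocyte gene, was well above background on 13 arrays, the T cell genes CD3D and CD3E on 12 and 10, and EPCAM on 2.

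Promoter stretches of 6 members are printed because several class I genes and MICA were called in opposite directions. They come from RefSeq (GRCh38.p14), which gave a promoter for 7 of the 9 members, and all bases printed lie before the annotated start of the gene. In the first 4 stretches, capitals mark matches on either strand to GGG and CC with 5 bases between them (κB letters), to GAA or GAAA followed by GAAA with 2 bases between them (interferon response letters) and to CCAAT. The stretches are those of HLA-B at chr6:31357225-31357362 (minus strand), HLA-C at chr6:31272138-31272290 (minus strand), HLA-F at chr6:29723272-29723387 (plus strand) and B2M at chr15:44711367-44711478 (plus strand), written 5′ to 3′ along each gene:
HLA-B: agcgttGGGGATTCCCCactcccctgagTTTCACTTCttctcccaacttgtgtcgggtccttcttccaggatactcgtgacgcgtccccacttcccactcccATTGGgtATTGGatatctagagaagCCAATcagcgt
HLA-C: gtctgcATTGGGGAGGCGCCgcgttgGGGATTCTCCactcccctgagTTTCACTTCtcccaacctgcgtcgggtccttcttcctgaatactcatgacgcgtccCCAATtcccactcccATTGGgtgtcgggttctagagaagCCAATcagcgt
HLA-F: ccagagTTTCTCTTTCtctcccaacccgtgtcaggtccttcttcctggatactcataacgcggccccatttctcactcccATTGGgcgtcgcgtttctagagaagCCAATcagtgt
B2M: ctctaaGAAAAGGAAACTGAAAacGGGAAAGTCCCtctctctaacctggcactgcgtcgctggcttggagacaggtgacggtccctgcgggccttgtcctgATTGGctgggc

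Interferon response letters were present in all 4 stretches, starting 155 bases before the start of HLA-B, 151 before HLA-C, 156 before HLA-F and 144 before B2M. Within the 250 bases before the start, 9.08% of 35116 promoters held such letters, 32.0% held CCAAT and 54.4% held κB letters. The κB letters matched upstream of HLA-B, HLA-C and B2M, and also of MICA, MICB and ULBP2, but not of HLA-F. These are matches of letters and not evidence of binding, and the κB letters in particular are common.

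For MICA at chr6:31403454-31403541 and MICB at chr6:31498000-31498058 (both plus strand), capitals mark only matches to GAANNTTC (heat shock letters) and to CCAAT:
MICA: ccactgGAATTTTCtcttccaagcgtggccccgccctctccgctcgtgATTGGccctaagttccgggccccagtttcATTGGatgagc
MICB: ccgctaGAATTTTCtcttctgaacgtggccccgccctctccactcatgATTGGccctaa

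The heat shock letters were held by 5.78% of all promoters within the same distance. They matched 135 bases before the start of MICA and 139 before MICB, and in no promoter of HLA-B, HLA-C, HLA-F, B2M or ULBP2. At both genes they overlap a match to the interferon response letters.

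The probes of HLA-B, HLA-C, HLA-E, HLA-F, B2M, MICA and MICB were well above background on all 16 arrays, and none of them was saturated. The brightest probe of NLRC5 was well above background on 14 arrays and its other probe on 13.

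The first question was whether the lines differ in these genes. Most class I genes were lower in the LP-1-cIAP2-eGFP cells than in control cells. Averaged over treatment and time, HLA-B, HLA-E, HLA-F and B2M were lower, by 1.25-fold to 1.44-fold, and MICA was higher. This is 5 of the 8 members tested, while 16.1% of all tested probes were called in this comparison (9.84% lower and 6.26% higher). The median log2 difference of the 6 class I members was -0.41 beside -0.02 over all tested probes. Without the dim array the count was also 4 lower and 1 higher. With slide as a block 4 were called, all lower, with differences of -0.37 for HLA-B (adjusted p = 0.026), -0.33 for HLA-E (0.031), -0.55 for HLA-F (0.012) and -0.52 for B2M (0.0044).

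**Figure D1:**
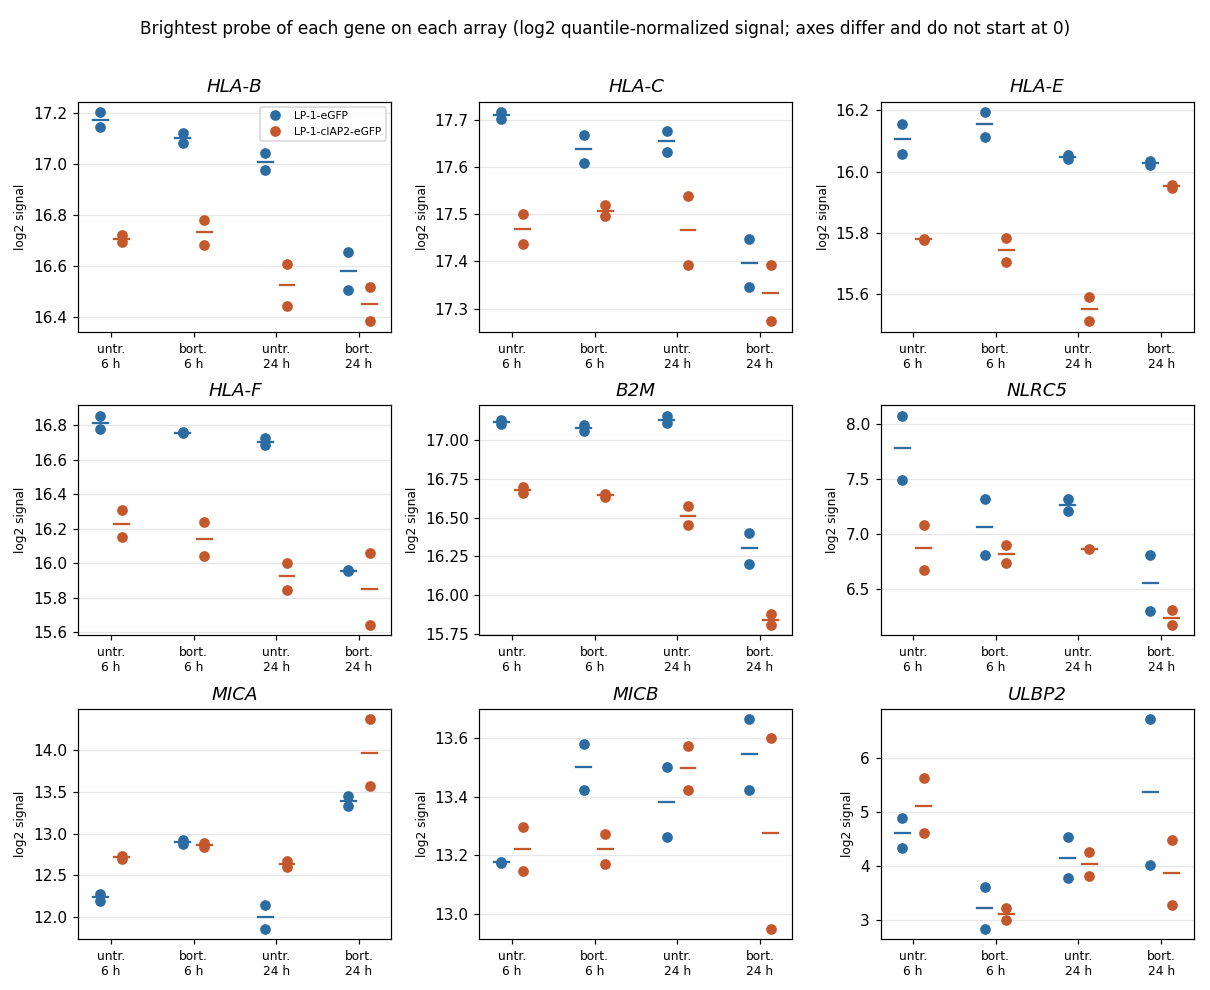
Log2 quantile-normalized signal of the brightest probe of each of the 9 genes. Points are arrays, lines are means of 2 replicates, blue is LP-1-eGFP, orange is LP-1-cIAP2-eGFP, and the axes differ between genes. B2M was highest in the untreated control cells (17.16 at most) and lowest in LP-1-cIAP2-eGFP cells with bortezomib at 24 h (15.81 at least), whereas MICA was highest in the latter.

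B2M encodes the light chain that class I molecules need for a stable place at the cell surface. In the control cells its log2 signal was 17.13 and 17.10 untreated at 6 h, 17.16 and 17.11 untreated at 24 h, 17.10 and 17.06 with bortezomib at 6 h, and 16.40 and 16.20 with bortezomib at 24 h. In the LP-1-cIAP2-eGFP cells it was 16.66 and 16.70 untreated at 6 h, 16.57 and 16.45 untreated at 24 h, 16.66 and 16.63 with bortezomib at 6 h, and 15.81 and 15.88 with bortezomib at 24 h. In each of the 4 settings both arrays of the LP-1-cIAP2-eGFP cells were below both arrays of the control cells. The averaged difference was -0.49 (SE 0.06, adjusted p = 0.00052, limma), which is 1.40-fold lower. It was -0.44 and -0.43 between untreated cells at 6 h within each of the 2 slides, -0.68 at 24 h within slide 2, and -0.56 with bortezomib at 24 h within slide 1.

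HLA-F, a nonclassical heavy chain, showed the largest line difference of the heavy chains by its brightest probe. In the control cells its log2 signal was 16.86 and 16.78 untreated at 6 h, 16.69 and 16.73 untreated at 24 h, 16.76 and 16.76 with bortezomib at 6 h, and 15.96 and 15.96 with bortezomib at 24 h. The LP-1-cIAP2-eGFP cells had 16.31 and 16.15 untreated at 6 h, 16.002 and 15.848 untreated at 24 h, 16.24 and 16.04 with bortezomib at 6 h, and 16.06 and 15.64 with bortezomib at 24 h. The lines were apart in 3 of the 4 settings and overlapped with bortezomib at 24 h. The averaged difference was -0.52 (SE 0.08, adjusted p = 0.0017), and the other probe of HLA-F gave -0.78 (adjusted p = 0.0010).

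HLA-B is a classical heavy chain. Its log2 signal in the control cells was 17.14 and 17.20 untreated at 6 h, 16.97 and 17.04 untreated at 24 h, 17.08 and 17.12 with bortezomib at 6 h, and 16.51 and 16.65 with bortezomib at 24 h. The values of the LP-1-cIAP2-eGFP cells were 16.72 and 16.69 untreated at 6 h, 16.61 and 16.45 untreated at 24 h, 16.68 and 16.78 with bortezomib at 6 h, and 16.52 and 16.38 with bortezomib at 24 h. Here too the lines overlapped only with bortezomib at 24 h. The averaged difference was -0.36 (SE 0.06, adjusted p = 0.0037), with -0.26 at the other probe (adjusted p = 0.020), but under normexp background correction it was -0.26 with an adjusted p of 0.16.

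HLA-E, the nonclassical heavy chain that binds the inhibitory NK cell receptor NKG2A, was the only member whose 8 arrays of one line did not overlap the 8 of the other. Its log2 signal in the control cells was 16.16 and 16.06 untreated at 6 h, 16.04 and 16.05 untreated at 24 h, 16.19 and 16.11 with bortezomib at 6 h, and 16.03 and 16.02 with bortezomib at 24 h. The LP-1-cIAP2-eGFP cells had 15.78 and 15.78 untreated at 6 h, 15.59 and 15.51 untreated at 24 h, 15.78 and 15.70 with bortezomib at 6 h, and 15.95 and 15.96 with bortezomib at 24 h. The gap was narrowest with bortezomib at 24 h. The averaged difference was -0.33 (SE 0.06, adjusted p = 0.0037), and under normexp background correction it was -0.25 with an adjusted p of 0.15.

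HLA-C, the other classical heavy chain, was not called. Its log2 signal ran from 17.35 to 17.72 in the control cells and from 17.27 to 17.54 in the LP-1-cIAP2-eGFP cells, and the averaged difference was -0.16 (SE 0.06, adjusted p = 0.12). An ordinary ANOVA without moderation and a stricter filter on signal did call it, with adjusted p of 0.0077 and 0.022. The probes of the HLA genes may share target sequence, since these genes are closely related, and the probe sequences were not used here.

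NLRC5, which drives transcription of class I genes, was dim, and its probes disagreed in the test. The brightest probe had a log2 signal of 7.499 and 8.08 in untreated control cells at 6 h and of 6.67 and 7.09 in untreated LP-1-cIAP2-eGFP cells at 6 h. At 24 h the untreated values were 7.21 and 7.32 against 6.87 on the 1 array of LP-1-cIAP2-eGFP cells that kept the spot. The lines did not overlap in untreated cells at either time. The averaged difference was -0.46 (SE 0.15, adjusted p = 0.067) at this probe. The other probe was well above background on 5 of 8 LP-1-cIAP2-eGFP arrays, among them all the untreated ones. In untreated cells it differed by -1.15 (SE 0.27, adjusted p = 0.030), with a log2 signal of 7.99 and 7.86 against 6.39 and 6.63 at 6 h.

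In the untreated cells alone, HLA-B, HLA-E, HLA-F and B2M were again lower in the LP-1-cIAP2-eGFP cells, which is 4 of 8 members tested beside 7.75% of all tested probes called (4.9% lower and 2.85% higher). B2M differed by -0.53 (SE 0.09, adjusted p = 0.0051) and HLA-F by -0.68 (SE 0.11, adjusted p = 0.0052). The differences were -0.47 for HLA-B (SE 0.09, adjusted p = 0.011) and -0.41 for HLA-E (SE 0.08, adjusted p = 0.013), and these lost their call when arrays were scaled to their 75th percentile (adjusted p = 0.082 and 0.11) or after normexp (0.15 and 0.11). Both also lost it without the second replicate of untreated LP-1-cIAP2-eGFP cells at 24 h (adjusted p = 0.054 for HLA-B and 0.061 for HLA-E). HLA-B lost it without the second untreated control array at 6 h (0.053), and HLA-E without the first (0.072), without the filter on signal (0.068) or without either untreated LP-1-cIAP2-eGFP array at 6 h (0.055 for each). Without the dim array MICA was called as well, with a count of 4 lower and 1 higher.

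With bortezomib, 0 members were called between the lines by limma at 6 h, beside 3.31% of all tested probes. At an unadjusted p under 0.05 the count was 4 members at 6 h, and the ordinary ANOVA called 4 lower. At this time both treated LP-1-cIAP2-eGFP arrays were on slide 1 and both treated control arrays on slide 2, so that no value within a slide exists and line and slide cannot be told apart by these arrays. At 24 h 0 members were called by limma, beside 5.92% of all tested probes, with 2 members at an unadjusted p under 0.05 and 1 called by the ordinary ANOVA. The differences of B2M were -0.43 at 6 h (SE 0.12, adjusted p = 0.11) and -0.46 at 24 h (SE 0.12, adjusted p = 0.062). Those of HLA-F were -0.62 at 6 h and -0.11 at 24 h (SE 0.16 at both). Without the dim array, HLA-E, HLA-F and B2M were called lower at 6 h (adjusted p = 0.031, 0.012 and 0.038), and MICA was called higher at 24 h (0.97, adjusted p = 0.0065). Without its replicate, the same 3 genes were called at 6 h, and at 24 h B2M (-0.49, adjusted p = 0.013) and MICB (-0.60, adjusted p = 0.019) were called lower.

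When the 8 arrays of each line were compared as 2 groups, with limits of 0.005 on the unadjusted p and of 2-fold on the size, 0 members passed, beside 3.54% of all tested probes. No averaged difference of a brightest probe reached 2-fold. At an unadjusted p under 0.05 without the fold, 4 members passed by limma. At an adjusted p under 0.05, 0 members passed.

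The genes around the members gave a mixed picture between the lines, where 16.1% of all tested probes were called (9.84% lower and 6.26% higher). Of 15 regulators of class I promoters, 7 were lower and 3 higher in the averaged comparison. IRF1, an interferon regulatory factor that binds class I promoters, differed by -1.37 (SE 0.11, adjusted p = 2.8e-05) and RELB, a subunit of noncanonical NF-κB, by -1.09 (SE 0.07, adjusted p = 8.7e-06). CIITA, the class II transactivator related to NLRC5, differed by -1.92 (SE 0.27, adjusted p = 0.00099), and by -1.65 without the dim array, the 1 LP-1-cIAP2-eGFP array on which it was not well above background. NFKB1, the gene of p105 and p50, was higher by 0.61 (SE 0.07, adjusted p = 0.00042). These calls held under each alternative run for them, but the other probe of CIITA gave 0.08 (adjusted p = 0.86).

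Of 14 genes of peptide supply and loading, 4 were lower and 3 higher between the lines. PSMB9 and PSMB8, catalytic subunits of the immunoproteasome, differed by -0.53 (adjusted p = 0.00035) and -0.46 (adjusted p = 0.017), and the call of PSMB8 was lost with slide as a block and with scaling to the 75th percentile. TAP1, a subunit of the peptide transporter, differed by -0.29 (adjusted p = 0.024), a call kept in 15 of 26 alternatives. ERAP1, which trims peptides in the endoplasmic reticulum, was higher by 0.89 (adjusted p = 5.4e-05). The median over the 14 genes was -0.01, close to that of all tested probes. Of 6 tested genes among the other class I and class I-like genes, 1 was lower, HLA-G (-0.27, adjusted p = 0.019), kept in 17 of 26 alternatives, a share close to the 16.1% of all tested probes.

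The second question was how bortezomib changes these genes. At 6 h, 0 of the 8 members were called by limma in either line. The background was 1.95% of all tested probes in the control cells and 1.09% in the LP-1-cIAP2-eGFP cells. At an unadjusted p under 0.05, 2 members passed in the control cells, MICA (0.66, SE 0.23, adjusted p = 0.23) and NLRC5 (-0.72, SE 0.28, adjusted p = 0.32), and 0 in the LP-1-cIAP2-eGFP cells. The ordinary ANOVA called 0 in both. Without the dim array, which is not part of this comparison but enters the estimate of the spread, MICA was called in the control cells with an adjusted p of 0.014, as it was without its replicate.

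At 24 h the members moved in both directions. In the control cells B2M, HLA-F and HLA-B fell and MICA rose, which is 4 of 8 members tested beside 21% of all tested probes called (11.2% lower and 9.81% higher). In the LP-1-cIAP2-eGFP cells B2M fell, and MICA and HLA-E rose, which is 3 of 8 beside 28.6% (17.5% lower and 11.1% higher). The counts were the same without the dim array. In these bulk samples, fewer cells with a transcript and less of it per cell cannot be told apart.

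B2M fell in both lines. The change was -0.83 in the control cells (SE 0.12, adjusted p = 0.0011), which is 1.78-fold, and -0.67 in the LP-1-cIAP2-eGFP cells (SE 0.12, adjusted p = 0.0031), which is 1.59-fold. Both treated arrays were below both untreated arrays in each line, by the values given above. Within slide 2 the change in the control cells was -0.93, and within slide 1 the change in the LP-1-cIAP2-eGFP cells was -0.73. With array weights the latter had an adjusted p of 0.10.

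HLA-F fell in the control cells by 0.75 (SE 0.16, adjusted p = 0.0085), and its other probe fell by 1.57 (SE 0.22, adjusted p = 0.00085). In the LP-1-cIAP2-eGFP cells the change was -0.07 at the brightest probe (SE 0.16, adjusted p = 0.76) and -0.81 at the other (SE 0.22, adjusted p = 0.022). The probes thus differed in their call in these cells. The replicates of the brightest probe were 16.06 and 15.64, and the former is the dim array.

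HLA-B fell in the control cells by 0.43 (SE 0.13, adjusted p = 0.039). This call was lost when any of 14 of the 16 arrays was left out, and also with scaling to the 75th percentile, normexp, no filter on signal, slide as a block (adjusted p = 0.075) and averaging of the probes. The other probe gave -0.20 (adjusted p = 0.36). The change of HLA-B in the LP-1-cIAP2-eGFP cells was -0.08 (SE 0.13, adjusted p = 0.69). HLA-C changed by -0.26 in the control cells (SE 0.12, adjusted p = 0.18) and by -0.13 in the LP-1-cIAP2-eGFP cells (SE 0.12, adjusted p = 0.44), and was not called. An ordinary ANOVA and the stricter filter called the former (adjusted p = 0.015 and 0.036).

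HLA-E took another course than the other heavy chains in the LP-1-cIAP2-eGFP cells. It rose there by 0.40 (SE 0.12, adjusted p = 0.027), whereas the change in the control cells was -0.02 (SE 0.12, adjusted p = 0.94). Within slide 1 the change in the LP-1-cIAP2-eGFP cells was 0.36. The rise was not called with slide as a block (adjusted p = 0.061), with scaling to the 75th percentile (0.22, adjusted p = 0.46), without the filter on signal or with array weights. It was also lost without either of the untreated 24 h arrays of this line (adjusted p = 0.077 and 0.14).

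NLRC5 was lower after 24 h by its second probe in both lines and was not called by its brightest probe in either. The second probe changed by -1.39 in the control cells (SE 0.38, adjusted p = 0.028), from 7.68 and 7.84 untreated to 5.95 and 6.79 treated. In the LP-1-cIAP2-eGFP cells it was not well above background on either treated array, and it was at least 1.70-fold lower than in untreated cells (adjusted p = 0.00095), with the bound set by the lowest signal well above background on those arrays. The brightest probe changed by -0.71 (SE 0.28, adjusted p = 0.12) and -0.63 (SE 0.34, adjusted p = 0.20).

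**Figure D2:**
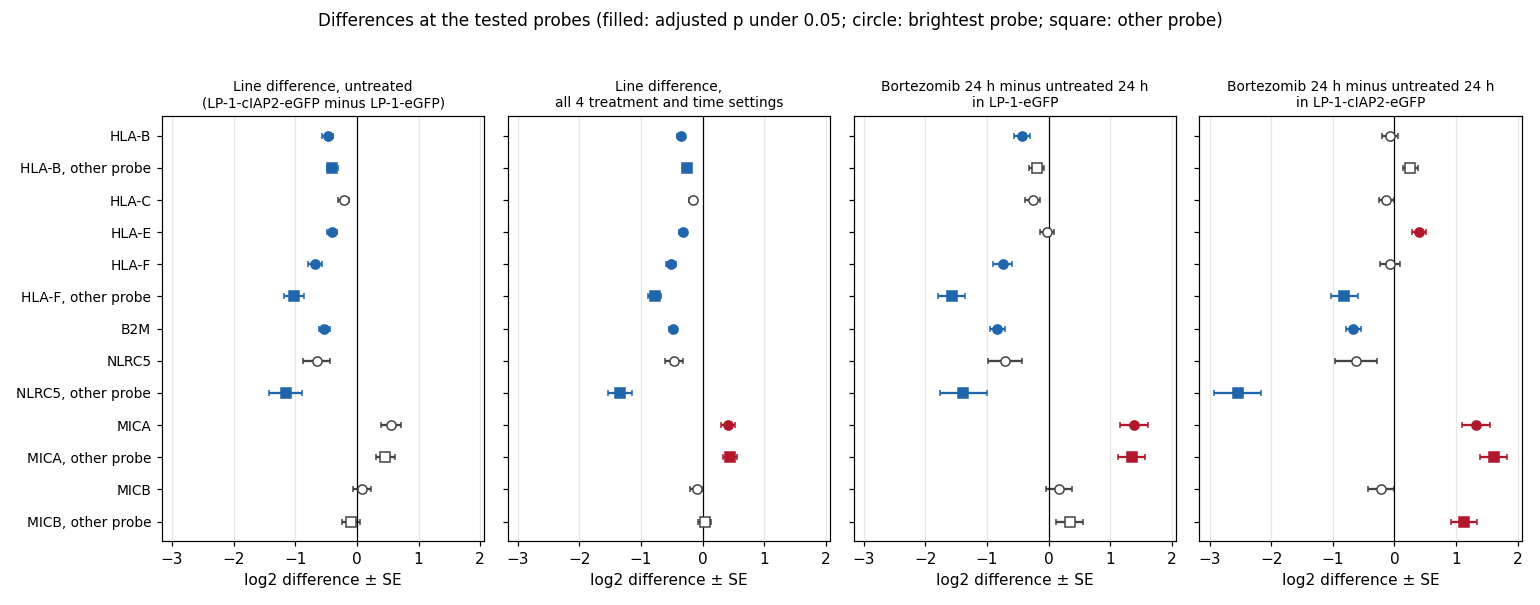
Log2 differences with SE at the 13 tested probes in 4 comparisons. Circles are the brightest probe of a gene, squares its other probe, filled blue is lower and filled red is higher at an adjusted p under 0.05, and open symbols were not called. B2M and HLA-F lie left of 0 between the lines, and MICA lies right of 0 after 24 h of bortezomib in both lines, whereas the squares of NLRC5 that use treated LP-1-cIAP2-eGFP arrays are not exact (5 of 8 arrays well above background).

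MICA, the best known stress-induced ligand of NKG2D, rose in both lines. In the control cells its log2 signal was 12.20 and 12.28 untreated at 6 h, 12.87 and 12.92 with bortezomib at 6 h, 11.87 and 12.15 untreated at 24 h, and 13.33 and 13.45 with bortezomib at 24 h. Those of the LP-1-cIAP2-eGFP cells were 12.70 and 12.74 untreated at 6 h, 12.84 and 12.89 with bortezomib at 6 h, 12.601 and 12.67 untreated at 24 h, and 13.56 and 14.36 with bortezomib at 24 h. In each line the treated arrays lay above the untreated ones at both times, and the 24 h treated arrays were the highest.

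The change at 24 h was 1.38 in the control cells (SE 0.23, adjusted p = 0.0019), which is 2.61-fold, and 1.33 in the LP-1-cIAP2-eGFP cells (SE 0.23, adjusted p = 0.0019), which is 2.51-fold. The other probe rose by 1.35 and 1.61. Within one slide the changes were 1.44 and 1.36. After normexp background correction the change in the LP-1-cIAP2-eGFP cells was 0.61 with an adjusted p of 0.40, and that in the control cells 1.39 with an adjusted p of 0.088. Between the lines MICA was higher in the LP-1-cIAP2-eGFP cells by 0.41 on average (SE 0.11, adjusted p = 0.035), a call that was lost when any of 13 of the 16 arrays was left out and with slide as a block (0.43, adjusted p = 0.12), scaling to the 75th percentile (adjusted p = 0.11), no filter on signal (0.074) and normexp (0.25, adjusted p = 0.60). In untreated cells this difference was 0.55 (SE 0.16, adjusted p = 0.072).

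MICB, the closest relative of MICA, was not called at its brightest probe in any comparison. Its log2 signal was 13.26 and 13.50 untreated and 13.42 and 13.67 treated in the control cells at 24 h. In the LP-1-cIAP2-eGFP cells it was 13.42 and 13.57 untreated and 12.95 and 13.60 treated, and the lower treated array is the dim one. The groups overlapped in both lines. Its other probe changed by 0.34 in the control cells (SE 0.21, adjusted p = 0.34) and rose by 1.13 in the LP-1-cIAP2-eGFP cells (SE 0.21, adjusted p = 0.0034), from 9.32 and 9.16 to 10.66 and 10.07. The probes of MICB therefore differed in sign there. Without the second replicate of LP-1-cIAP2-eGFP cells with bortezomib at 24 h, which leaves the dim array alone in its condition, the brightest probe was called lower (-0.55, adjusted p = 0.021).

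ULBP2, a ligand of NKG2D anchored to the membrane by a lipid, could not be followed at this signal. Its probe was well above background on 4 of 16 arrays, 3 of them of control cells and 1 of LP-1-cIAP2-eGFP cells. Its highest log2 signal, 6.72, was in control cells with bortezomib at 24 h, where the replicate was 4.01. No difference is given for it.

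The order of the conditions summarises the course of the members. For B2M the untreated control cells came first and the treated LP-1-cIAP2-eGFP cells at 24 h last, and 6 of the 7 steps between neighbours in that order had arrays that did not overlap. For HLA-B, HLA-C and HLA-F the untreated control cells at 6 h were also first and the treated LP-1-cIAP2-eGFP cells at 24 h last, but the 3 lowest conditions overlapped each other from one to the next. For HLA-E the lowest condition was the untreated LP-1-cIAP2-eGFP cells at 24 h. For MICA the treated LP-1-cIAP2-eGFP cells at 24 h came first and the untreated control cells at 24 h last. For MICB all 7 pairs of neighbours overlapped.

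The response to bortezomib was then compared directly between the lines. By limma, 0 members differed at 6 h and 0 at 24 h, and in all 0.00297% and 0.0712% of tested probes did. At an unadjusted p under 0.05, 0 members passed at 6 h and 2 at 24 h, and the ordinary ANOVA called 0. The 2 at 24 h were HLA-F, with a difference in response of 0.68 (SE 0.23, adjusted p = 0.52), and HLA-E, with 0.42 (SE 0.16, adjusted p = 0.58). The responses of MICA differed by -0.05 (SE 0.32) and those of B2M by 0.16 (SE 0.17), and with 1 array left out these values ranged from -0.46 to 0.35 and from 0.06 to 0.26. Without the second replicate of LP-1-cIAP2-eGFP cells with bortezomib at 24 h, HLA-F (0.88, adjusted p = 0.0069) and MICB (-0.71, adjusted p = 0.038) were called.

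The responses at 24 h and at 6 h, averaged over the lines, differed for B2M and MICA, which is 2 of 8 members beside 14.9% of all tested probes. HLA-F was not called (-0.34, adjusted p = 0.22), but it was without the dim array (-0.44, adjusted p = 0.028), with scaling to the 75th percentile (-0.65, adjusted p = 0.04994), after normexp (-0.44, adjusted p = 0.047) and with averaged probes (-0.72, adjusted p = 0.010). The count was thus 2 lower and 1 higher without the dim array. The untreated cells at 24 h and at 6 h differed in 0 members by limma, beside 0.0089% of all tested probes, with 0 at an unadjusted p under 0.05 and 0 by the ordinary ANOVA.

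Genes that supply and load peptides also moved at 24 h. Of these 14 genes, 10 fell and 1 rose in the control cells, and 10 fell and 3 rose in the LP-1-cIAP2-eGFP cells, beside 21% and 28.6% of all tested probes called, with a median of -0.82 and -0.87 beside -0.03 and -0.16 over all tested probes. TAPBP, which encodes tapasin, changed by -1.68 in the control cells (SE 0.16, adjusted p = 8.6e-05) and by -1.80 in the LP-1-cIAP2-eGFP cells (SE 0.16, adjusted p = 4.5e-05). In control and LP-1-cIAP2-eGFP cells the changes were -1.11 and -1.66 for PSMB8, -1.08 and -1.37 for PSMB9, and -1.15 and -1.40 for PSME2, a subunit of the proteasome activator PA28. They were -0.84 and -1.09 for TAP1 and -1.31 and -1.27 for ERAP1, all of them called. The calls of TAP1 in the control cells and of ERAP1 in the LP-1-cIAP2-eGFP cells were lost after normexp. ERAP2, the second trimming enzyme, rose by 0.68 and 0.65, calls kept in 22 and 23 of 26 alternatives and lost with scaling to the 75th percentile. CANX and PDIA3 rose in the LP-1-cIAP2-eGFP cells by 0.82 and 0.65, calls kept in 22 of 26 alternatives each. Without the dim array these rises were 0.66 and 0.40 and were not called.

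**Figure D3:**
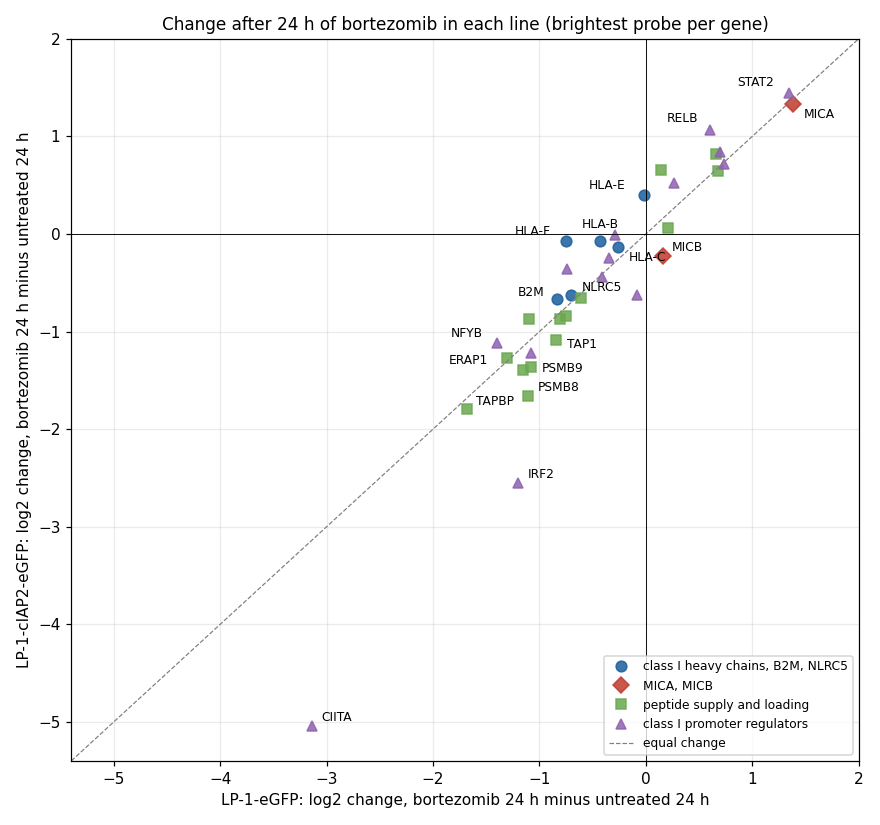
Log2 change after 24 h of bortezomib in LP-1-eGFP (horizontal) and LP-1-cIAP2-eGFP cells (vertical) at the brightest probe of each gene shown (1 regulator is not shown), with a dashed line of equal change. MICA lies at the upper right (1.38 and 1.33), most genes of peptide supply and loading at the lower left, and CIITA farthest down, at a vertical position that is not exact because 1 of its 2 treated LP-1-cIAP2-eGFP arrays was not well above background.

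Of the 15 regulators of class I promoters, 6 fell and 3 rose in the control cells at 24 h, and 5 fell and 4 rose in the LP-1-cIAP2-eGFP cells, where 21% and 28.6% of all tested probes were called. CIITA changed by -3.14 in the control cells at its brightest probe (SE 0.54, adjusted p = 0.0026). In the LP-1-cIAP2-eGFP cells it was lower too (adjusted p = 0.00014), but only 1 of the 2 treated arrays was well above background. The fitted change there, -5.04, is therefore not exact. It was -3.97 without the dim array and ranged from -6.11 to -2.40 over the alternatives. The other CIITA probe gave -1.16 and 0.24 and was not called. NFYB, a subunit of the CCAAT-binding factor NF-Y, changed by -1.40 and -1.12, and the latter lost its call after normexp and with array weights and came down to -0.52. IRF2, which binds interferon response elements, changed by -1.20 in the control cells, a call kept in 16 of 25 alternatives, and was at least 1.42-fold lower in the LP-1-cIAP2-eGFP cells, where it was not well above background after treatment. STAT2, which acts downstream of type I interferon receptors, rose by 1.35 and 1.44, RELB by 0.60 and 1.07, and RELA, the p65 subunit of NF-κB, by 0.73 and 0.72. With scaling to the 75th percentile RELA was called in neither line, and RELB lost its call in the control cells. IRF1 changed by 0.27 and 0.52 and was not called (adjusted p = 0.49 and 0.11).

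Among the other class I-like genes, FCGRT, the neonatal Fc receptor, which also pairs with β2-microglobulin, changed by -1.13 (SE 0.16, adjusted p = 0.00097) and -1.52 (SE 0.16, adjusted p = 0.00014). MR1, which presents vitamin B metabolites, rose in the control cells by 1.22 (SE 0.24, adjusted p = 0.0049) and changed by 0.65 in the LP-1-cIAP2-eGFP cells (adjusted p = 0.068). HLA-G changed by -0.53 in the control cells (adjusted p = 0.016), kept in 20 of 26 alternatives, and was not called in the LP-1-cIAP2-eGFP cells. In all, 3 of the 6 tested genes fell and 1 rose in the control cells, and 1 fell in the LP-1-cIAP2-eGFP cells, beside 21% and 28.6% of all tested probes called.

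Another NKG2D ligand, ULBP1, was called at the earlier time. At 6 h of bortezomib it rose by 2.33 in the control cells (SE 0.49, adjusted p = 0.048) and by 2.58 in the LP-1-cIAP2-eGFP cells (SE 0.49, adjusted p = 0.045), but these calls were kept in only 9 and 8 of 26 alternatives, and its other probe was not called (adjusted p = 0.21 and 0.66). At 24 h its change was 0.89 and 1.22 and was not called. Its averaged line difference was -1.24 (adjusted p = 0.0071), which lost its call with slide as a block (adjusted p = 0.056) and ranged from -1.41 to -0.72 over the alternatives. ADAM17, a protease that sheds NKG2D ligands from the cell surface, rose at 24 h by 1.48 (SE 0.14, adjusted p = 9.2e-05) and 1.73 (SE 0.14, adjusted p = 2.8e-05). PDIA6, a disulfide isomerase needed for shedding of MICA, changed by -0.57 and -0.52 (adjusted p = 0.039 and 0.044), calls kept in 12 and 13 of 26 alternatives. In this list of 9 genes, 7 had a probe and 5 were tested, and 1 rose and 1 fell at 24 h in each line, beside 21% and 28.6% of all tested probes called.

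Of 11 tested ligands of other NK cell receptors, 3 were higher and 2 lower in the LP-1-cIAP2-eGFP cells on average, beside 6.26% and 9.84% of all tested probes. SLAMF7, a surface receptor of myeloma cells, was higher (adjusted p = 2.3e-08), but it was well above background on only 5 of 8 control arrays. The fitted difference, 5.79, is therefore not exact, and it ranged from 4.16 to 5.90 over the alternatives. With bortezomib at 24 h, when none of the arrays was too dim for it, the difference was 4.75 (SE 0.30, adjusted p = 7.5e-05). CD48, the ligand of 2B4, was higher by 1.44 (adjusted p = 0.00030) and CD58, the ligand of CD2, by 0.71 (adjusted p = 0.0011), a call lost after normexp. The differences were -2.08 for NECTIN2, a ligand of DNAM-1 (adjusted p = 1.3e-05), and -1.38 for ICAM1, a ligand of LFA-1 (adjusted p = 1.7e-06). After 24 h of bortezomib 1 of the 11 rose and 1 fell in the control cells, beside 21% of all tested probes called. In the LP-1-cIAP2-eGFP cells 1 rose and 2 fell, beside 28.6%. CD48 changed by -2.64 and -1.80, and the latter was not called with array weights. CD58 changed by -1.35 in the LP-1-cIAP2-eGFP cells (SE 0.20, adjusted p = 0.00098), a call kept in 26 of 26 alternatives. The gene that rose in the control cells was SLAMF7 (1.12, adjusted p = 0.024), a call kept in 20 of 25 alternatives. NECTIN2 rose by 1.74 in the LP-1-cIAP2-eGFP cells (adjusted p = 0.00092), a call lost with array weights and when its probes were averaged (1.13 at the lowest), and its change in the control cells was not called.

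Plasma cell genes moved with the 24 h response. Of 8 such genes 6 fell in the control cells and 7 in the LP-1-cIAP2-eGFP cells, beside 11.2% and 17.5% of all tested probes, and 0 rose in either. SDC1, which encodes syndecan-1 (CD138), changed by -1.80 and -3.11, XBP1, a transcription factor of secretory cells, by -1.72 and -1.20, and CD38 by -1.70 and -2.14. At 6 h SDC1 had already fallen, with changes of -1.44 (adjusted p = 0.0049) and -0.94 (adjusted p = 0.039), the latter kept in 11 of 26 alternatives. In the averaged line comparison SDC1 was higher by 1.42 and MZB1, a chaperone of secretory cells, by 0.50 in the LP-1-cIAP2-eGFP cells, and CD38 differed by -0.55, while the other 5 were not called. The call of MZB1 was lost with scaling to the 75th percentile. The part of these changes in those of the members was not tested.

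The genes whose pattern was most like that of the members were sought among 9782 genes measured well above background on all 16 arrays, which share their conditions with the members. For the mean of HLA-B, HLA-C, HLA-E, HLA-F and B2M these were PCP4 (Pearson correlation 0.985 over 16 arrays), TSPYL5 (0.981) and HLA-J (0.981), and 0.521% of the genes exceeded 0.9. For MICA they were RELT (0.972), CLIP1 (0.967) and ZNF503 (0.963), and 1.66% of the genes exceeded 0.9. For MICB they were CEP76 (0.861), COA1 (0.853) and TNIP2P1 (0.841), and none exceeded 0.9.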

How the data were processed

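RNA of 16 cultures was hybridized to Agilent SurePrint G3 arrays. Per the file headers, the deposited intensity values are signals of the Feature Extraction software, corrected for background within each array only. A deposited table of log2 values, which the authors had quantile normalized in GeneSpring and which proved centred per probe, served as an alternative. Control spots and spots marked as outliers were left out, replicate spots were averaged as log2 values, and arrays were quantile normalized with limma 3.58.1 in R 4.3.3. Probes were named through their RefSeq accession (28174 of 50599). The model held 8 condition means (lmFit, contrasts.fit, eBayes, 1.61 prior and 8 residual degrees of freedom), and the script was tested on simulated data. The number of arrays limits the precision.

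The members, the gene lists and the tests were chosen with earlier results of these data known. All members and up to 6 genes per list were named, those with the largest called changes first, with others where a clause on biology or a lost call needed them. Replicate numbers did not pair the arrays. Motif letters were chosen after the promoters had been seen. Alternatives changed 1 choice at a time: scaling to the 75th percentile, normexp (offset 50), the authors' table, the filter on dim probes, replicate block, slide block, array weights, an ordinary 3-way ANOVA, averaged probes, and each array left out. The same alternatives were run for list genes after the data had been seen. A few genes of the lists are counted but not reported by name here.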

Additional observations from a re-analysis of the deposited data

Results flagged for a closer look

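B2M and MICA are listed because their response to bortezomib differed between the time points when the difference itself was tested with limma. For B2M the 24 h response minus the 6 h response was -0.71 on the log2 scale (SE 0.12, adjusted p = 0.0045, averaged over the lines). At 6 h the change of B2M had been -0.04 in the control cells and -0.03 in the LP-1-cIAP2-eGFP cells. For MICA the 24 h response exceeded the 6 h response by 0.95 (SE 0.23, adjusted p = 0.020), after changes of 0.66 and 0.15 at 6 h. The call of MICA was lost after scaling to the 75th percentile (0.65, adjusted p = 0.24), after normexp (0.62, adjusted p = 0.52) and when either the first replicate of control cells with bortezomib at 6 h or the second replicate of untreated control cells at 6 h was left out.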

How the results depend on the processing

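Over all alternatives, 2556 of 2677 single values of the members kept their side of the threshold, 62 lost a call and 59 gained one, and no called value changed sign. B2M and HLA-F kept their lower averaged and untreated line differences under every alternative. After normexp the count of members called was 2 in the averaged comparison, 2 in untreated cells, 1 between the treated lines at 6 h and 2 for bortezomib at 24 h in control cells. Scaling to the 75th percentile left 2 in untreated cells. It also moved the median of all probes for bortezomib at 24 h in the LP-1-cIAP2-eGFP cells from -0.16 to 0.21 and that of the line difference at this time from -0.11 to 0.11.

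Between the treated lines at 6 h, 4 members were called with the strict filter on signal, 4 with array weights, 4 by the ordinary ANOVA and 1 with averaged probes. At 24 h the count was 1 with the strict filter, 1 by the ordinary ANOVA and 1 with averaged probes. Array weights called 1 member for bortezomib at 6 h in control cells and 1 at 24 h in the LP-1-cIAP2-eGFP cells, and averaged probes 5 in the latter. The numbers of the replicates did not pair the arrays (7 of 28 pairs of conditions with r over 0.1, range -0.11 to 0.24). With a replicate block 1 member was called between the treated lines at 6 h, HLA-F (-0.62, adjusted p = 0.046), and 1 at 24 h, B2M (-0.46, adjusted p = 0.049). In untreated cells the block added MICA (0.55, adjusted p = 0.041) and NLRC5 (-0.73, adjusted p = 0.030). NLRC5 was also called in the averaged comparison (-0.50, adjusted p = 0.015) and for bortezomib at 24 h in control cells (-0.71, adjusted p = 0.039). The causes were not tested.

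With 1 array left out, the count ranged from 4 to 6 in the averaged comparison, 2 to 5 in untreated cells, 0 to 3 and 0 to 2 between the treated lines at 6 h and 24 h, 0 to 1 for bortezomib at 6 h in control cells, 3 to 4 and 2 to 4 at 24 h in the control and LP-1-cIAP2-eGFP cells, 0 to 2 for the difference in response at 24 h, and 1 to 3 for the 24 h against the 6 h response. The lone array of a condition was then assumed to vary like the others. Dim probes, those of NLRC5 and ULBP2, limit what can be said of these genes.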
